A study of Mus musculus with 8 samples.

Results

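The heat shock proteins and their co-chaperones were described here in vagal ganglia of mice given house dust mite allergen (HDM) or saline. Members were taken by name: protein-coding genes whose symbols begin with Hspa, Hspb, Hspd1, Hspe1, Hsph1, Hsp90, Dnaja, Dnajb or Dnajc, together with Bag1 to Bag6, Ahsa1, Chordc1, Stip1 and Hsf1, with a total of at least 80 counts over the 8 libraries. Hspbap1 was left out by name, and Hspbp1, an exchange factor for Hsp70, entered by its letters. The rule took 76 of the 55335 genes in the table, of which 21899 are protein-coding. Of 83 protein-coding genes with such names, 7 fell below the count minimum: Hspb3 with 64 counts, Dnajc5b with 51, Dnajb7 with 38, Dnajb13 with 13, Dnajb8 and Hspb9 with 1 each, and Dnajc5g with 0. The members just inside it were Hspa1l with 96 counts, Dnajb3 with 151 and Dnajc22 with 159.

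All mice carried the wild-type genotype. Ganglia of HDM-treated and saline-treated mice were taken 1.5 h after challenge number 4, with 4 libraries for each treatment. Each library is a pool of 6 to 8 ganglia from 3 to 4 mice. The labels number the batches 1 to 4 as they do the replicates, with an HDM pool and a saline pool in each. The labels used here give no age of the mice. Library totals were 23.95 to 26.67 M counts (mega-counts) in HDM and 26.87 to 31.28 M counts in saline. Neuronal markers (Rbfox3, Snap25, Tubb3, Uchl1, Prph and Slc17a6) summed to 6450 to 7380 CPM in every pool, where CPM are counts scaled to a common library total. The 3 nodose and 2 jugular neuron markers were also present in each pool, at 370 to 502 and 120 to 137 CPM. In bulk tissue such as this, fewer cells of a type and less RNA per cell cannot be told apart.

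Heat shock proteins are chaperones: they hold unfolded proteins, help them fold and pass those that fail to degradation. Hsp70 proteins work in a cycle in which J proteins (the Dnaja, Dnajb and Dnajc genes) deliver the client and trigger ATP hydrolysis. Exchange factors such as Bag1 and Hsp110 then let ADP and the client go. Hsp90 takes partly folded clients, among them kinases and steroid receptors, from Hsp70 through the adaptor Stip1. The transcription factor Hsf1 is held inactive by these chaperones, and after heat or other protein damage it binds inverted nGAAn repeats upstream of the inducible genes. Neurons are known for a high constitutive level of Hsc70, the product of Hspa8, and a low level of the inducible Hsp70 genes at rest.

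Stretches upstream of 5 members are printed to show the heat shock and stress elements that some members carry, and a called member without them. They end at the base before the RefSeq start site on GRCm38.p6 and read 5′ to 3′ on the gene's strand. Capitals mark a pair of inverted repeats, GAANNTTC, in Hspa1b, Hspa1a and Hspb1, and the element of the endoplasmic reticulum (ER) stress response, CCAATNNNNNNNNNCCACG in Dnajc3. Bag1 is cut to 112 bases because an annotated exon lies beyond them, and it holds neither motif in that window. The stretches lie at chr17:34959239-34959488 on the minus strand for Hspa1b. Those of Hspa1a and Bag1 lie at chr17:34972157-34972406 and chr4:40948295-40948406, both on the minus strand. Those of Hspb1 and Dnajc3 lie at chr5:135887669-135887918 and chr14:118937682-118937931, both on the plus strand.
Hspa1b: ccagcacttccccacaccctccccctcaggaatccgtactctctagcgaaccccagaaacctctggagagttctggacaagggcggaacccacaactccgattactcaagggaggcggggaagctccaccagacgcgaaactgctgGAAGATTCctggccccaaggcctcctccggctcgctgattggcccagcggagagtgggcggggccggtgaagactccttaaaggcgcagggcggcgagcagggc
Hspa1a: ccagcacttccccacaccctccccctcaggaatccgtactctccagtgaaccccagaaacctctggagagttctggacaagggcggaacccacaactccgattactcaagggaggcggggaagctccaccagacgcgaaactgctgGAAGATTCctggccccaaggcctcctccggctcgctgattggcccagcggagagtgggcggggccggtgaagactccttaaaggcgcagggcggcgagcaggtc
Hspb1: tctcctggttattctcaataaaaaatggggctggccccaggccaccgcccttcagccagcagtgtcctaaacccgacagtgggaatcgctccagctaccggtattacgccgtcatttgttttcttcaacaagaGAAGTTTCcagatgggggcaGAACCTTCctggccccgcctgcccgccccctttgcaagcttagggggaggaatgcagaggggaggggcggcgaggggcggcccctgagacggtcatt
Dnajc3: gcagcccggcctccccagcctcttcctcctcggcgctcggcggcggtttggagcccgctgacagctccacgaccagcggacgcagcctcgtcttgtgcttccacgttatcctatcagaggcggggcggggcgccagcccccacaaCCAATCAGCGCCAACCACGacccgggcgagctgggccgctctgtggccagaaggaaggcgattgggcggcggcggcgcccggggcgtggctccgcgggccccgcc
Bag1: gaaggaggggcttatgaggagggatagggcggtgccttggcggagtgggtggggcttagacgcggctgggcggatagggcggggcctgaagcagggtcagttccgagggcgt

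The 250 bases upstream of Hspa1a and Hspa1b, neighbouring inducible Hsp70 genes on chromosome 17, differed at 3 positions, and both held the pair of repeats at −104 to −97 from the start site. Hspb1 held 2 such pairs, at −117 to −110 and −97 to −90, and the ER stress element of Dnajc3 lay at −105 to −87. Upstream sequence from RefSeq was at hand for 61 of the 76 members. Among those without it were Hsf1 and the stress-inducible members Hspa8, Hsp90ab1 and Hsp90aa1. Searched for GAANNTTC or TTCNNGAA, which covers both strands, 13 of the 61 (21.3%) held a pair within 250 bases, against 12.1% of the 12247 tested genes with such sequence. Of 14 members listed as stress-inducible, 8 held a pair (57.1%), and of the other 47 members 5 did (10.6%). The 8 were Dnaja1, Dnajb4, Hspa1a, Hspa1b, Hspb1, Hspd1, Hspe1 and Hsph1. That list was taken from known targets of Hsf1, so its larger share is partly built in and tests nothing. The 8 are also not separate cases: Hspd1 and Hspe1 hold the same stretch, and Hspa1a and Hspa1b are near copies. The longer run GAANNTTCNNGAA or TTCNNGAANNTTC, which contains the pair, was found for Dnajb6, Hspd1 and Hspe1, or 4.92% of members against 0.425% of tested genes. Hspd1 and Hspe1 share their upstream region, and their runs are the same stretch (chromosome 1, 55088059 to 55088076) read from either strand, so the 3 members stand for 2 places in the genome. The ER stress element, searched on both strands, was found for Dnajc3, Hsp90b1 and Hspa5. They are 3 of the 7 members with sequence that were listed as folding genes of the ER (42.9%, against 0.155% of tested genes). The element and that list were both chosen for the ER, so this share too is partly built in and tests nothing. A match is a description of these letters, not a measured binding site.

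Members made up 1.48% to 1.57% of all counts in the 8 libraries, and Hspa8, Hsp90ab1 and Hsp90aa1 alone made up 0.71% to 0.759%. Per kilobase of the gene's listed length (RPKM, mean of the 8 libraries), Hsp90ab1 was highest at 842 RPKM, followed by Hspa8 at 699 RPKM and Hsp90aa1 at 463 RPKM. Below these came the small heat shock protein gene Hspb8 at 168 RPKM, Stip1 at 125 RPKM, and Hsp90b1, the Hsp90 of the ER, at 119 RPKM. These 6 members exceeded 100 RPKM and 44 of 76 exceeded 10 RPKM. The order of Hsp90ab1 and Hspa8 rests on the length used. Hspa8 has a listed length of 4301 bases, whereas its longest coding transcript has 2394. In CPM Hspa8 was the higher of these genes, with means of 2993 in HDM and 3019 in saline against 2670 and 2382 for Hsp90ab1. Inducible Hsp70 was far lower, with Hspa1b at 4.07 RPKM and Hspa1a at 2.27 RPKM, though reads matching both may have been left out. Hspa1l, known from testis, was lowest at 0.176 RPKM. The plot of level by role shows this spread and how closely the group means sit within each gene.

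**Figure D1:**
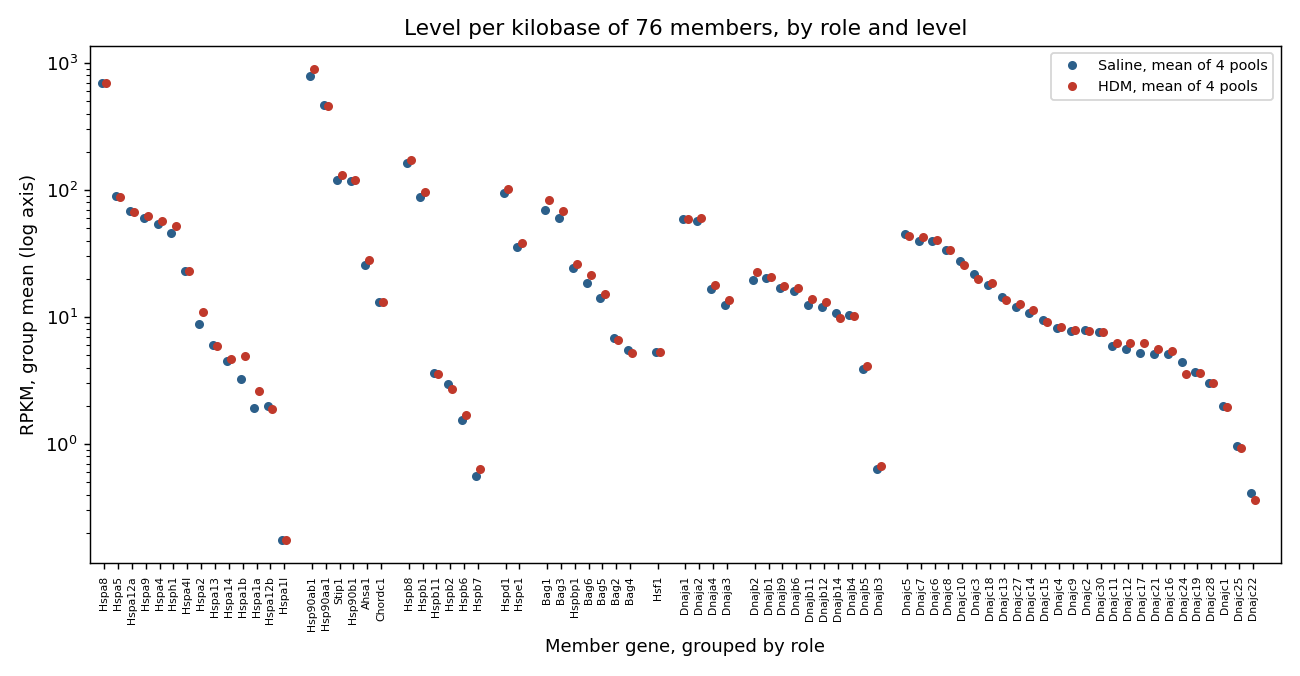
Level of each of the 76 members in RPKM on a log axis, grouped by role and ordered by level within a role, with 1 point for the mean of the 4 saline pools and 1 for the mean of the 4 HDM pools. Hsp90ab1, Hspa8 and Hsp90aa1 lead, and Hspa1l is lowest at 0.176 RPKM.

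HDM and saline were compared gene by gene with edgeR's quasi-likelihood test over 17618 genes, and all 76 members passed its filter on low counts. At an adjusted p under 0.05, 2 members were higher in HDM, Bag1 and Dnajb2, and 0 were lower. That is 2.63% of members as higher, against 1.23% of all genes tested as higher, 0.159% as lower and 1.38% in either direction. The median log2 fold change (HDM over saline) was 0.047 over members and −0.006 over all genes tested, and 51 members (67.1%) had a positive value against 48.5% of all genes. At an unadjusted p under 0.05, 17 members were higher (22.4%, against 10.4% of all genes) and 3 lower (3.95%, against 7.69%). In 11 members all 4 HDM pools lay above all 4 saline pools (14.5%, against 6.25% of all genes), and in 2 all lay below (2.63%, against 4.39%). Differences were small: 47 of 76 members had a log2 fold change of less than 0.1 in size, and 3, Hspa1b, Hspa1a and Hspa2, were higher by more than 1.2-fold. Members had more counts than most genes, with a median of 61.3 CPM against 16.9 (not per length), and varied less between replicate pools, with 60 of 76 below the median biological variation of all genes.

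With the batch as a block in the edgeR model, 7 members passed as higher (9.21%, against 3.01% of all genes): Bag1, Bag3, Bag6, Dnajb2, Hspa2, Hsp90ab1 and Stip1, and 0 were lower (1.03% of all genes, and 4.05% in either direction). Values with this block are given below where they change a call. Fold changes followed the GC content of transcripts: over all genes the median log2 fold change went from −0.08 in the bin of lowest GC to 0.093 in the bin of highest GC, of 4 bins with equal numbers of genes. The members' medians in the same bins, from low to high GC, were −0.005 for 21 genes, 0.023 for 18, 0.086 for 20 and 0.119 for 17, and Pearson's r between fold change and GC was 0.43 across the 76 members and 0.28 across 17602 genes, as a description over genes that share the same libraries. With a correction for GC content in edgeR, 0 members were called, as were 0 of all genes (0%). At an unadjusted p under 0.05, that correction left 20 members higher and 0 lower, against 6.71% and 5.46% of all genes. The members' median log2 fold change was then 0.06, with 53 of 76 positive (69.7%, against 48.8% of all genes). With the correction and the block together 0 members were called in edgeR, against 0.216% of all genes. At an unadjusted p under 0.05, 23 were then higher and 1 lower, against 7.97% and 6.7% of all genes. Which part of the fold changes goes with GC content and which with the treatment was not tested. The plot of fold change against GC content gives every member over the density of all genes.

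**Figure D2:**
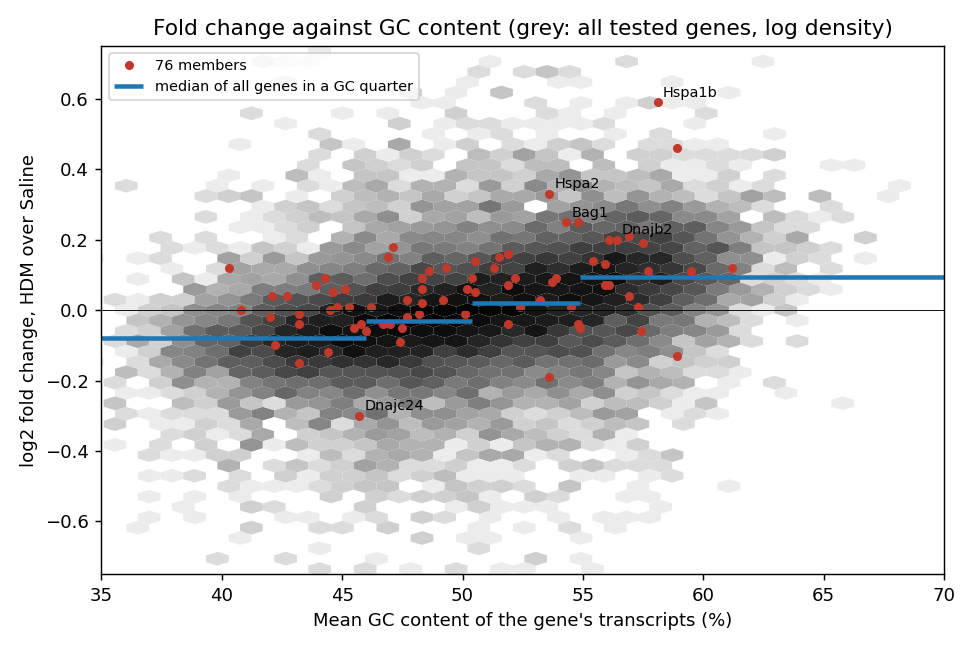
Log2 fold change (HDM over saline) against the mean GC content of a gene's transcripts in percent, for the 76 members (red) over the density of all tested genes (grey, log scale), with the median of all genes in each of 4 GC bins (blue). The axes show the range that holds the members, and the blue medians climb from −0.08 to 0.093 from the bin of lowest GC to that of highest.

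The BAG genes and Hspbp1 are grouped here by name as exchange factors, and Hsph1 is counted with the Hsp70 genes. In the group of 7 exchange factors, 1 rose (14.3%, against 1.23% of all genes) and 0 fell. The group's median log2 fold change was 0.114, and 0.016 with the GC correction, where 4 of the 7 were positive. Bag1 (ENSMUSG00000028416, chromosome 4, 40936398 to 40948294, GRCm38), which couples Hsp70 to the proteasome, had 115, 112, 108 and 112 CPM in HDM 1 to 4 and 99.3, 99.5, 89.7 and 87.3 CPM in saline 1 to 4. The groups did not overlap, and HDM was higher in each of the 4 batches. The means were 112 ± 3.18 CPM and 93.9 ± 6.33 CPM (SD, n = 4 each), a log2 fold change of 0.25 with an SE of 0.051 (adjusted p in edgeR 0.0332, and 0.0145 with the block). With the GC correction the difference was 0.20 (edgeR adjusted p = 0.131). Leaving out HDM 1, HDM 2, HDM 4, saline 3, saline 4 or any batch ended the call, with log2 fold changes of 0.21 to 0.28 over all libraries and batches left out, and over all alternatives the edgeR, DESeq2 or limma adjusted p lay between 0.000628 and 0.16.

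Bag6, which captures membrane proteins that miss the ER, had 140.4, 126, 128 and 143 CPM in HDM 1 to 4 and 115, 119.5, 111 and 117 CPM in saline 1 to 4. Here too every HDM pool was above every saline pool, and the log2 fold change of 0.21 (SE 0.05) had an edgeR adjusted p of 0.0558 without the block and 0.0296 with it (0.0474 without HDM 3). Bag3, an Hsf1 target that steers damaged proteins to autophagy with Hspb8, had 181, 175, 159.8 and 190.0 CPM in HDM 1 to 4 and 144, 157, 145 and 169 CPM in saline 1 to 4. The groups overlapped, since saline 4 lay above HDM 3, but HDM was higher within each of the 4 batches. Its log2 fold change of 0.20 (SE 0.062) passed with the block and not without (edgeR adjusted p = 0.0296 and 0.119). With the GC correction Bag6 and Bag3 each had 0.12 (edgeR adjusted p = 0.33 and 0.476). Hspbp1 and Bag5 each had a log2 fold change of 0.11, and Bag2 and Bag4 had −0.05 and −0.06, with no call.

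**Figure D3:**
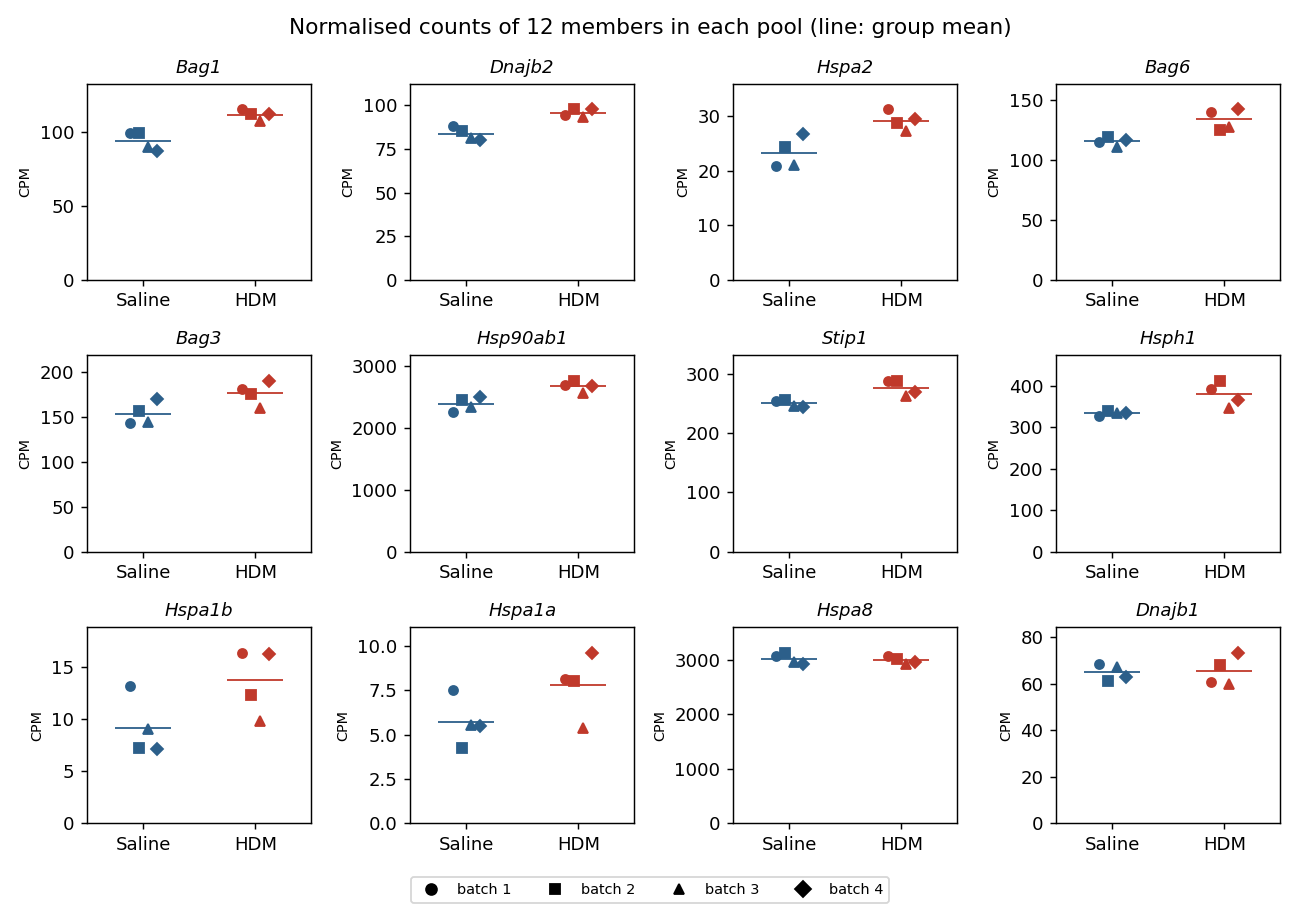
Normalised counts (CPM, axes from 0) of 12 members in each of the 4 saline and 4 HDM pools, with symbols for the batch and a line for the group mean. Bag1, Dnajb2, Hspa2, Bag6, Hsp90ab1, Stip1 and Hsph1 show no overlap between groups, while Bag3, Hspa1b, Hspa1a, Hspa8 and Dnajb1 do.

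Among the 14 Hsp70 and Hsp110 genes, 0 were called without the block, and the median log2 fold change was 0.035. At an unadjusted p under 0.05, 4 were higher (28.6%, against 10.4% of all genes). Hspa8, the constitutive Hsc70 that also uncoats clathrin vesicles, had 3075, 3014, 2918 and 2966 CPM in HDM 1 to 4 and 3062, 3131, 2957 and 2927 CPM in saline 1 to 4. The groups lay on top of each other, with a log2 fold change of −0.01 (SE 0.042, edgeR adjusted p = 0.91). Hspa2 (chromosome 12, 76404176 to 76406938), an Hsp70 best known from sperm development, had 31.3, 28.8, 27.3 and 29.5 CPM in HDM 1 to 4 and 20.9, 24.4, 21 and 26.8 CPM in saline 1 to 4. Its lowest HDM pool was just above its highest saline pool, and the log2 fold change was 0.33 (SE 0.081, edgeR adjusted p = 0.0645, 0.04 with the block, 0.0317 without saline 4 and 0.213 with the GC correction). Hsph1, the inducible Hsp110 and an exchange factor for Hsp70, had 393, 412, 347 and 366 CPM in HDM 1 to 4 and 328, 339.5, 334 and 336 CPM in saline 1 to 4. The HDM pools were all higher but spread more widely, with an SD of 28.8 CPM against 4.69, and the log2 fold change of 0.18 (SE 0.052) did not pass (edgeR adjusted p = 0.0962, 0.0514 with the block and 0.0473 without HDM 3).

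Hspa1b (ENSMUSG00000090877, chromosome 17, 34956436 to 34959238), the inducible Hsp70, had the highest fold change of the 76 members, with 16.4, 12.3, 9.81 and 16.3 CPM in HDM 1 to 4 and 13.1, 7.24, 9.03 and 7.07 CPM in saline 1 to 4. HDM was higher in each batch, but saline 1 lay above HDM 2 and HDM 3. The log2 fold change was 0.59 (SE 0.20, edgeR adjusted p = 0.137, and 0.0558 with the block). Without saline 1 it was 0.81 and passed (edgeR adjusted p = 0.0285), as it did with no filter on low counts (0.00413). It was 0.49 with the GC correction (edgeR adjusted p = 0.33), and 0.39 when batch 4 was left out (0.417). Saline 1 also had the highest summed erythrocyte markers, at 240 CPM against 44.3 to 75.8 in the other pools, and the highest fibroblast markers, at 768 CPM against 484 to 606, and their part in its Hspa1b level was not tested. Hspa1a (ENSMUSG00000091971, chromosome 17, 34969190 to 34972156) had 8.12, 8.03, 5.36 and 9.63 CPM in HDM 1 to 4 and 7.51, 4.24, 5.54 and 5.48 CPM in saline 1 to 4, with a log2 fold change of 0.46 (SE 0.18, edgeR adjusted p = 0.21). Its order over the pools resembled that of Hspa1b, with HDM 3 the lowest HDM pool and saline 1 the highest saline pool.

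The 2 transcripts were 85.9% identical, and 62.3% of the 50-base windows of the Hspa1b transcript also occurred in Hspa1a, so the split of reads between them is uncertain. Their sum does not rest on that split, apart from reads left out as matching both. It was 24.5, 20.4, 15.2 and 25.9 CPM in HDM 1 to 4 and 20.7, 11.5, 14.6 and 12.6 CPM in saline 1 to 4, with Hspa1b at 56.3% to 66.8% of the reads. No 50-base window was shared with Hspa8 (0%). Among all tested genes Hspa1b and Hspa1a stood at percentiles 87.4 and 84.1 of biological variation between replicates. The heat map of the stress-inducible members puts both beside the other inducible genes.

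The remaining Hsp70 genes had log2 fold changes from −0.06 (Hspa12b) to 0.09 (Hspa4), apart from Hspa1l, which at under 1 CPM had 0.03 with an SE of 0.43. Hspa12b, an endothelial Hsp70 relative, was highest in saline 1 at 9.31 CPM against 5.68 to 7.35 in the other pools, and saline 1 also had the highest summed endothelial markers, at 81.4 CPM against 51.2 to 65.3. The part of the endothelial markers in that level was not tested.

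In the Hsp90 system, 0 of 6 members were called without the block and 2 with it (33.3%, against 3.01% of all genes). At an unadjusted p under 0.05, 3 were higher (50%, against 10.4% of all genes). The median log2 fold change was 0.077. Hsp90ab1, the constitutive cytosolic Hsp90 (chromosome 17, 45567775 to 45573271), had 2689, 2752, 2565 and 2674 CPM in HDM 1 to 4 and 2254, 2444, 2336 and 2493 CPM in saline 1 to 4. The groups did not overlap, and the log2 fold change was 0.16 (SE 0.046, edgeR adjusted p = 0.0879, 0.0382 with the block and 0.231 with the GC correction). Stip1, the adaptor that links Hsp70 to Hsp90, had 288, 288, 263 and 269 CPM in HDM 1 to 4 and 254, 256, 246 and 244 CPM in saline 1 to 4. These groups did not overlap either, with a log2 fold change of 0.15 (SE 0.045, edgeR adjusted p = 0.11, 0.0469 with the block and 0.235 with the GC correction). Hsp90aa1, the inducible cytosolic Hsp90, had 1838, 1839, 1816 and 1693 CPM in HDM 1 to 4 and 1756, 1951, 1824 and 1839 CPM in saline 1 to 4. It overlapped throughout, with a log2 fold change of −0.04 (SE 0.047, edgeR adjusted p = 0.725). Ahsa1, which activates the Hsp90 ATPase, had 0.12, Hsp90b1 had 0.04 and the Hsp90 co-chaperone gene Chordc1 had 0.00 on the log2 scale, with no call.

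The small heat shock proteins hold unfolding proteins without using ATP. Of the 6 genes grouped here by their Hspb symbols, 0 were called, and the median log2 fold change was 0.105 (0.056 with the GC correction). At an unadjusted p under 0.05, 1 was higher (16.7%, against 10.4% of all genes). Hspb11, which is in this group by its symbol only, had −0.01. Hspb1, the Hsp27 gene that is also known from injured sensory neurons, had 98.3, 101, 95.0 and 100 CPM in HDM 1 to 4 and 93.6, 98.2, 85.9 and 85.7 CPM in saline 1 to 4. Saline 2 lay within the HDM range, and the log2 fold change of 0.12 (SE 0.051, edgeR adjusted p = 0.237) was −0.01 with the GC correction. Hspb8, the partner of Bag3, had 339, 334, 323 and 351 CPM in HDM 1 to 4 and 306, 315, 311 and 333 CPM in saline 1 to 4, a log2 fold change of 0.09 (SE 0.044, edgeR adjusted p = 0.297). Hspb8 overlapped through saline 4. Hspb2, Hspb6 and Hspb7, which are typical of muscle, were under 5 CPM in every pool, and the summed skeletal muscle markers, 4 of 6 of them under 1 CPM, were 20.9 to 28.4 CPM in HDM and 17.3 to 19.4 CPM in saline.

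The mitochondrial chaperonin Hspd1 (Hsp60) had 266, 275, 262 and 266 CPM in HDM 1 to 4 and 249, 254, 245 and 254 CPM in saline 1 to 4. The groups did not overlap, but the difference was small, with a log2 fold change of 0.09 (SE 0.039, edgeR adjusted p = 0.229). Its lid Hspe1 (Hsp10), whose gene lies head to head with Hspd1 and overlaps it on the other strand, had 62.2, 58.6, 51.7 and 52.7 CPM in HDM 1 to 4 and 53.1, 54.0, 53.5 and 48.4 CPM in saline 1 to 4. It overlapped, with a log2 fold change of 0.11 (SE 0.062, edgeR adjusted p = 0.38). Of the 8 mitochondrial members, 0 were called in edgeR, and their median log2 fold change was 0.062. At an unadjusted p under 0.05, 2 of them were higher (25%, against 10.4% of all genes). Hsf1 itself had 40.6, 36.3, 36.4 and 37.9 CPM in HDM 1 to 4 and 37.9, 39.9, 37.1 and 35.6 CPM in saline 1 to 4, a log2 fold change of 0.01 (SE 0.055, edgeR adjusted p = 0.962).

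Of the J proteins, 1 of 40 rose (2.5%, against 1.23% of all genes) and 0 fell. Dnajb2 (ENSMUSG00000026203, chromosome 1, 75236406 to 75245692), a neuronal J protein that hands ubiquitylated clients to the proteasome, had 94.8, 97.7, 93.1 and 97.8 CPM in HDM 1 to 4 and 87.9, 85.4, 81.5 and 80.2 CPM in saline 1 to 4. No pools overlapped, and the means were 95.9 ± 2.29 CPM and 83.8 ± 3.55 CPM (SD, n = 4 each). Its log2 fold change was 0.20 (SE 0.044, edgeR adjusted p = 0.0468 without the block and 0.031 with it). With the GC correction it was 0.11 (edgeR adjusted p = 0.27). Of the libraries left out in turn, only HDM 3 and saline 1 could be spared without losing the call, and over all alternatives the edgeR, DESeq2 or limma adjusted p lay between 0.00406 and 0.27. Dnajb1 (Hsp40), the inducible partner of Hspa1a and a direct target of Hsf1, had 60.8, 68.1, 59.9 and 73.5 CPM in HDM 1 to 4 and 68.5, 61.1, 67.3 and 63.1 CPM in saline 1 to 4. The groups were interleaved, with a log2 fold change of 0.01 (SE 0.066, edgeR adjusted p = 0.939).

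Dnaja3, the mitochondrial Hsp40, had 53.2, 53.5, 51.9 and 52.5 CPM in HDM 1 to 4 and 48.5, 48.8, 47.6 and 49.0 CPM in saline 1 to 4. It was among the steadiest of all tested genes, at percentile 0.1 of biological variation, and the groups did not overlap, with a log2 fold change of 0.12 (SE 0.041, edgeR adjusted p = 0.139). Dnaja4 had 64.0, 65.7, 60.3 and 65.2 CPM in HDM 1 to 4 and 57.8, 58.6, 60.6 and 62.6 CPM in saline 1 to 4, with some overlap and a log2 fold change of 0.09 (SE 0.046, edgeR adjusted p = 0.316). Dnajb12, a J protein of the ER membrane, had 42.3, 44.5, 46.3 and 44.5 CPM in HDM 1 to 4 and 40.2, 42.6, 39.9 and 38.8 CPM in saline 1 to 4. Saline 2 lay just above HDM 1, and the log2 fold change was 0.14 (SE 0.049, edgeR adjusted p = 0.163). The 4 Dnaja genes had a median log2 fold change of 0.081 and the 10 Dnajb genes 0.067.

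The 26 Dnajc genes had a median log2 fold change of 0.014, with 14 positive and 0 called in edgeR. At an unadjusted p under 0.05, 1 was higher (3.85%, against 10.4% of all genes) and 3 were lower (11.5%, against 7.69%). With the GC correction, 2 of the 26 were higher at that threshold and 0 lower, against 6.71% and 5.46% of all genes. Dnajc3 (P58IPK, chromosome 14, 118937976 to 118981697), a co-chaperone of the ER that also restrains the kinase PERK, had 100.1, 106, 103 and 99.2 CPM in HDM 1 to 4 and 116, 113, 112 and 112 CPM in saline 1 to 4. Every HDM pool was below every saline pool, and the log2 fold change was −0.15 (SE 0.04, edgeR adjusted p = 0.076, 0.0511 with the block and 0.472 with the GC correction, where it was −0.08), and it passed as lower in DESeq2 (adjusted p = 0.0126). Dnajc10, a reductase of the ER, was the other member with all HDM pools below saline, at 126 to 130 CPM against 133 to 144, and its log2 fold change was −0.10 with an edgeR adjusted p of 0.221. Dnajc12, a cytosolic J protein that binds the enzymes making dopamine and serotonin, had 27.8, 26.7, 26.7 and 29.6 CPM in HDM 1 to 4 and 23.2, 25.3, 26.4 and 24.9 CPM in saline 1 to 4, just without overlap (log2 fold change 0.15, SE 0.06, edgeR adjusted p = 0.208). The others ranged from −0.30 (Dnajc24, edgeR adjusted p = 0.236) to 0.25 (Dnajc17, 0.292), and Dnajc5, the cysteine string protein of synaptic vesicles, had −0.04.

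**Figure D4:**
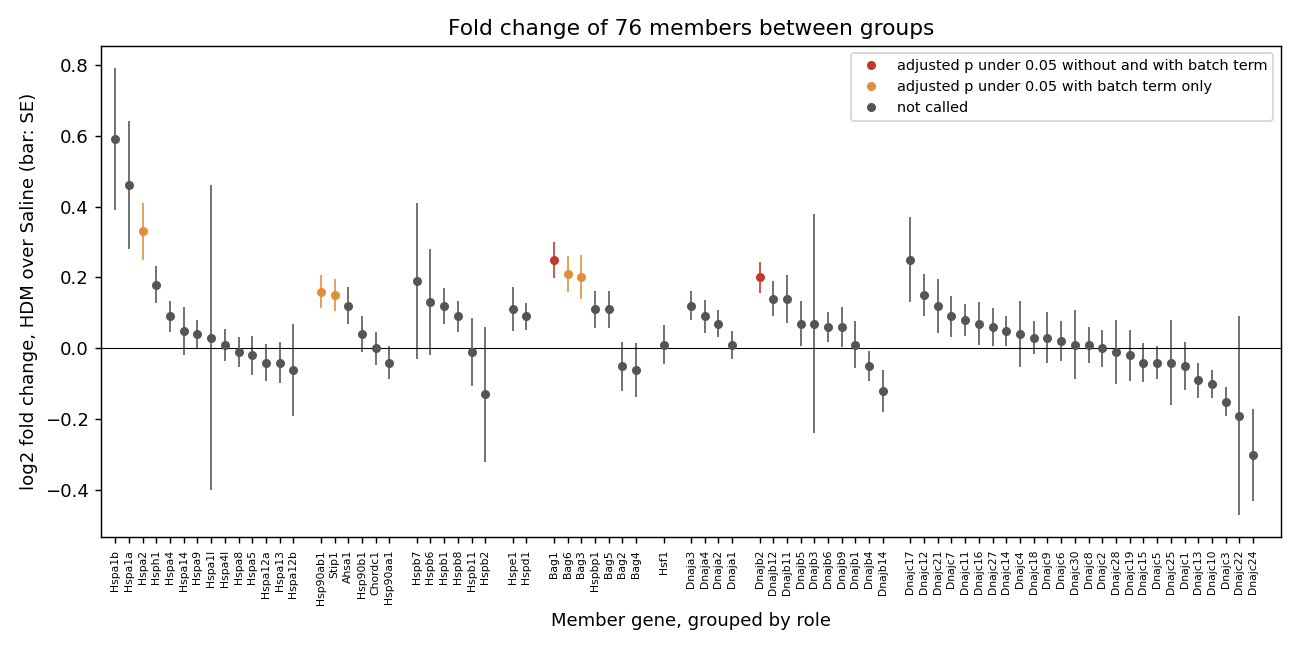
Log2 fold change (HDM over saline) of the 76 members with its SE as a bar, grouped by role and ordered within it, coloured by the edgeR call. Bag1 and Dnajb2 were called without and with the batch term, Hspa2, Hsp90ab1, Stip1, Bag6 and Bag3 only with it, and the values range from −0.30 (Dnajc24) to 0.59 (Hspa1b).

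The 17 stress-inducible members are taken from known targets of Hsf1. Without the block edgeR called 0 of them, against 1.38% of all genes. At an unadjusted p under 0.05, 9 were higher (52.9%, against 10.4% of all genes) and 0 lower (against 7.69%). With the block 3 passed as higher, Bag3, Hsp90ab1 and Stip1 (17.6%, against 3.01% of all genes). The list includes Hspa8 and Hsp90ab1, whose level is also high without stress. The median log2 fold change of the 17 was 0.109, 0.10 with the GC correction and 0.106 with the block, with 13 of 17 positive. The spread within the list was wide: Hspa1b and Hspa1a had 0.59 and 0.46, whereas Hspa8, Dnajb1, Chordc1 and Dnaja1 had −0.01, 0.01, 0.00 and 0.01, and Hsp90aa1 and Dnajb4 had −0.04 and −0.05. Over pools, the median deviation of the 17 genes from their own means ran from −0.03 in HDM 3 to 0.09 in HDM 2 and from −0.04 to −0.02 in the saline pools. HDM 2 was the highest pool for 8 of the 17 and saline 4 the lowest for 6. Of the 61 members with upstream sequence, the 13 with a pair of repeats had a median log2 fold change of 0.093 (11 positive) and the 48 without had 0.051 (33 positive), which was not tested.

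**Figure D5:**
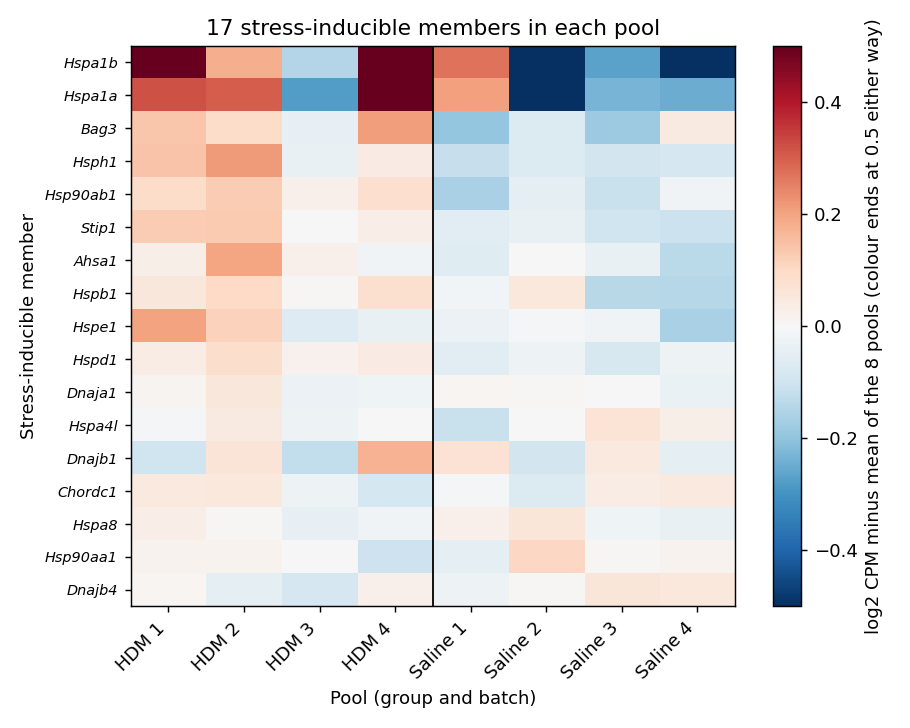
Heat map of the 17 stress-inducible members in the 8 pools, as log2 CPM minus the gene's mean over the pools, with the colour scale ending at 0.5 in either direction. Hspa1b and Hspa1a vary most, with HDM 1 and HDM 4 high and saline 2 low, and HDM 3 is pale or blue in most rows.

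The 8 members listed as folding genes of the ER, which fold secreted proteins, included 0 called genes in edgeR with or without the block. At an unadjusted p under 0.05, 0 were higher (against 10.4% of all genes) and 2 lower (25%, against 7.69%). With the GC correction, 2 of the 8 were higher at that threshold and 0 lower, against 6.71% and 5.46% of all genes. Their median log2 fold change was −0.029 (0.028 with the GC correction). Dnajb12, described above as a J protein of the ER membrane, is not on this list. It was higher at that threshold (log2 fold change 0.14, unadjusted p in edgeR 0.0143). Hspa5 (BiP), the main Hsp70 of the ER and its stress marker, had 377, 368, 359.9 and 397 CPM in HDM 1 to 4 and 369, 419, 351 and 383 CPM in saline 1 to 4, with full overlap and a log2 fold change of −0.02 (SE 0.056, edgeR adjusted p = 0.895). Of 10 further genes of the ER stress response, 0 were called in edgeR. At an unadjusted p under 0.05, 3 were higher (30%, against 10.4% of all genes). They were the stress factor gene Ddit3 (log2 fold change 0.27, edgeR adjusted p = 0.128), Calr (0.14, 0.13) and Sdf2l1 (0.26, 0.19).

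Chaperone genes outside the rule were read in the same fit. Of 26 partners and regulators of the Hsp70 and Hsp90 systems, 1 rose (3.85%, against 1.23% of all genes) and 0 fell. At an unadjusted p under 0.05, 9 were higher (34.6%, against 10.4% of all genes) and 2 lower (7.69%, as among all genes). The median log2 fold change was 0.051. The gene that rose was Nudc, a nuclear movement protein that acts with Hsp90, at 101 ± 8.66 CPM in HDM and 79.8 ± 6.71 CPM in saline (SD, n = 4 each). Its log2 fold change was 0.34 with an SE of 0.068 (adjusted p in edgeR 0.032, 0.00844 with the block and 0.137 with the GC correction). It was also the only gene of this list past the threshold with the block and the GC correction together (0.27, edgeR adjusted p = 0.0362). With the block alone Nudc, Sgta, Fkbp4, Fkbp8 and Cdc37 passed as higher (19.2%, against 3.01% of all genes). Fkbp4 and Cdc37 are Hsp90 co-chaperones for steroid receptors and kinases, and their log2 fold changes were 0.20 and 0.18 (edgeR adjusted p = 0.0792 and 0.104, and 0.024 and 0.0289 with the block). Sgta, a partner of Bag6, had 0.19 (edgeR adjusted p = 0.0586 without the block and 0.0499 with it). Of the 14 genes of the cytosolic chaperonin and prefoldin, which fold actin and tubulin, 0 were called in edgeR with or without the block. At an unadjusted p under 0.05, 3 were higher (21.4%, against 10.4% of all genes). These were Pfdn6 at 0.23, Pfdn2 at 0.16 and Cct7 at 0.10, and the median of the 14 was 0.017.

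Cell type markers and other stress genes were read beside the members. Summed neuronal markers were 6800 to 7380 CPM in HDM and 6450 to 6670 CPM in saline, without overlap, with 1 of 6 called as higher (against 1.23% of all genes). Summed myelinating Schwann cell markers were 2470 to 2700 CPM in HDM and 2560 to 3140 CPM in saline, with 1 of 5 called as lower (against 0.159% of all genes). Sympathetic neuron markers had a median log2 fold change of 1.25 with 0 of 4 called, at 229 to 685 CPM in HDM and 110 to 291 CPM in saline. Nodose neuron markers (374 to 502 CPM in HDM, 370 to 434 in saline), satellite glia markers (439 to 520 and 496 to 583) and fibroblast markers (484 to 541 and 539 to 768) had medians of 0.32, −0.18 and −0.19, with 0 called and overlapping ranges. Of 8 early genes listed for their response to handling of tissue, 1 rose (12.5%, against 1.23% of all genes). It was Junb (log2 fold change 0.45, SE 0.075, edgeR adjusted p = 0.0173), which had 0.31 with the GC correction (edgeR adjusted p = 0.139). Jun had 0.21 and Fosb 0.34 without passing, and the median of the 8 was 0.068. Whether handling or the treatment goes with the Junb difference was not tested. Of 6 genes of the oxidative stress response 0 were called in edgeR. At an unadjusted p under 0.05, 1 was higher (16.7%, against 10.4% of all genes). Log2 fold changes were 0.15 for Txnrd1, −0.87 for Slc7a11 (SE 0.61) and −0.12 for Hmox1, with a median of 0.008. The part of these measures in the levels of Bag1, Dnajb2 and the other members was not tested.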

How the data were processed

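RNA was measured in 8 libraries of pooled vagal ganglia, 4 per treatment. Per the labels' protocols, libraries came from a stranded mRNA kit with paired reads of 50 bp. The deposited table holds raw counts per gene, made by the authors with featureCounts on GRCm38 (mm10), per the submitters' processing notes. No aligner, version or strand setting is given in the sources used here. Because the strand setting is not given, 31 of the 76 members, which overlap a gene on the other strand (among them Hspa1a with Gm20481, and Hspd1 with Hspe1), are uncertain, while Bag1 and Dnajb2 overlap none.

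Members and lists were chosen with earlier results of these data known. In edgeR 4.0.16 under R 4.3.3, counts were filtered by filterByExpr (37717 genes removed), scaled by TMM factors and tested with the quasi-likelihood F-test (2-sided), group as the only term, with Benjamini-Hochberg adjustment over 17618 genes at 0.05. CPM use the TMM factors. RPKM divide by the table's gene length. Cell-type markers were summed in CPM. Alternatives were other size factors, filters, DESeq2 1.42.0, limma-voom (limma 3.58.1), a robust dispersion, a batch block, an offset for transcript GC (natural spline with 4 degrees of freedom, fitted above a mean log2 CPM of 3), and leaving out each library or batch. Transcript GC and overlaps come from GENCODE M21, where 75 of 76 members had the same span. The batch label pairs the libraries. Over genes, the residuals of HDM and saline pools of the same batch had correlations of −0.04 to 0.065. Those of HDM and saline pools of different batches had −0.272 to 0.239. The pairing used for the block therefore rests on the label. Fits were tested on simulated data. Named with every library's value were 12 members chosen by function, every called member and the 2 with the smallest p in each role. In the other lists of genes, the called genes and the 3 with the smallest p were named, except that a gene this rule took is not reported here.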

Additional observations from a re-analysis of the deposited data

Results flagged for a closer look

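In 5 of 78 groups of 4 pools examined, the most extreme pool stood far from the other 3, and chance flags about 1 in 20 groups. Hsp90aa1 had 1693 CPM in HDM 4 against 1816 to 1839 CPM in the other HDM pools. Hspe1 had 48.42 CPM in saline 4 against 53.09 to 53.96 CPM in the other saline pools. Summed neuronal markers were 6800 CPM in HDM 3 against 7300 to 7380 CPM, and HDM 3 was also the pool without which 4 members passed in edgeR in place of 2, as did 2.1% of all genes in place of 1.38%. Summed sympathetic neuron markers (Th, Dbh, Slc6a2 and Hand2) were 685 CPM in HDM 4 against 229 to 260 CPM in the other HDM pools. Summed erythrocyte markers were 240 CPM in saline 1 against 71.1 to 74 CPM in the other saline pools.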

How the results depend on the processing

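The members' median log2 fold change kept its sign under every alternative run, between 0.033 and 0.062, while the number of members called ran from 0 to 8. With median-of-ratios size factors, a filter of 1 CPM in 4 libraries (73 members tested) or limma-voom 1 was called (Bag1). The shares of all genes called there were 1.11%, 1.43% and 1.21%. With no filter 5 members were called, with robust dispersion 4, with DESeq2 8 (7 higher, 1 lower) and with the replicate block 7. The shares of all genes called were 2.26%, 2.08%, 4.78% and 4.05%, against 1.38% without these choices. With the GC offset or block and GC offset together 0 members were called (0% and 0.216% of all genes). Leaving out a library or batch gave 0 to 4 members: 0 without HDM 1, HDM 2, HDM 4, saline 3 or any batch, 1 without saline 2 (Bag1) or saline 4 (Hspa2), 3 without saline 1 and 4 without HDM 3 (1.18% and 2.1% of all genes). Without HDM 1, HDM 2, saline 3 or batch 2 edgeR called 0 of all genes as well. It called 0.335% of all genes without HDM 4, 0.543% without saline 2 and 0.978% without saline 4. Without batch 1, 3 or 4 the shares of all genes were 0.0283%, 0.136% and 0.0227%. Stress-inducible members called were 1 with no filter, 3 with DESeq2, 3 with the block, and 0 to 1 on leaving out a library (1 without HDM 3, Hsph1, or saline 1, Hspa1b). Other chaperone genes called (1 in the design without block) were 2 with no filter, 6 with DESeq2, 3 with robust dispersion, 6 with the block, 0 with the GC offset, and 0 to 4 on leaving out a library or batch (4 without saline 1, 0 without HDM 1, HDM 2, saline 3 or saline 4). The cause of these moves was not tested. Some signs turned: with the GC offset and with block and GC offset, Dnajb1 had −0.012 and −0.014, Hsf1 −0.087 and −0.088 (and −0.006 with no filter), Hsp90aa1 0.01 and 0.011, Hspa5 0.021 and 0.023, and Hspb1, at 0.119 without them, −0.011 in both, while Bag5 went from 0.11 to −0.01 with the GC offset. On leaving out a library or batch Dnajb1 ranged from −0.063 to 0.073, Hsf1 from −0.03 to 0.054, Hspa5 from −0.056 to 0.039 and Hspa8 from −0.03 to 0.004. With 4 pools a group, the SE of a log2 fold change was 0.038 to 0.43, so small changes in low genes such as Hspa1l were not detectable at this depth.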
